A study of Mus musculus with 6 samples.

Results

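The 38 genes described here are the mouse Hox cluster genes measured on Illumina bead arrays of the embryonic lower jaw. Members were all genes whose symbol is Hox, a cluster letter from a to d and a paralog number, taken from the array's platform annotation. The rule found 38 of 19057 genes with a probe of 1 symbol, 10 each in Hoxa and Hoxb and 9 each in Hoxc and Hoxd. Where a gene had several probes, as 13 members did, the brightest on average was taken to stand for it. The choice did not use any measured difference.

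The study compared the tooth germ of the lower molar with oral tissue that holds neither tooth nor bone, from embryos of the outbred CD-1 stock at embryonic day 13.5. No allele, treatment or age other than the stage is given for either group. Each of 3 litters gave 1 array per tissue (n = 3), both tissues came from the same embryos, and each array pools several of them, so differences between single embryos are not seen. The labels conflict on which arrays are tooth germ: by titles and descriptions it is one set of 3 libraries, and by source names and tissue fields it is the opposite set. Libraries are named here by title, and if the source names are right the sign of every difference turns. Of 11 measured markers of dental mesenchyme and epithelium, 7 were higher in titled tooth germ and 0 lower, and of 12 skeletal muscle markers 11 were lower and 0 higher (limma, adjusted p under 0.05). The shares over all 19057 genes were 2.39% higher and 3.42% lower. On the deposited log2 scale the median was 7.01 and the upper quartile 7.84 on each of the 6 arrays, which follows from the quantile normalization. With so few arrays per tissue, their number limits the precision.

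Hox genes encode homeodomain transcription factors that give cells their position along the body axis. They lie in 4 clusters, and within a cluster the genes of low paralog number are switched on first and reach farthest toward the head, while those of high number act toward the tail and in the ends of limbs. Neural crest cells that fill the first pharyngeal arch, the source of the lower jaw and its teeth, are known for forming without Hox expression, and Hoxa2 in the second arch is the selector gene that sets that arch apart. Tongue muscle, nerves and their supporting cells enter the jaw from other levels of the axis.

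Most Hox genes gave low signals in both tissues. The mean over the 6 arrays lay above the median of all values for 16 of 38 members (42.1%), against 63.8% of all 19057 genes, and above the upper quartile for 0 members, against 38.1% of all genes. Taking the brightest probe raises genes with several probes, which were 9172 of all 19057 genes and 13 of the 38 members, so these shares are not strictly alike. With the mean of all probes 12 members lay above the median of all values. Member means ran from 6.82 to 7.72, with a median of 6.97, while the median gene stood at 7.26 on the same log2 scale. By group, 17 members had a mean above the median of all values in titled oral tissue and 11 in titled tooth germ. A probe's brightness also depends on its sequence, so these levels do not order the genes. No detection call was used, so no member can be called absent, and a difference between dim signals may be understated. Counted by library, 15, 18 and 15 members lay above the median in oral tissue libraries 1, 2 and 3, and 11, 10 and 12 in tooth germ libraries 1, 2 and 3.

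**Figure D1:**
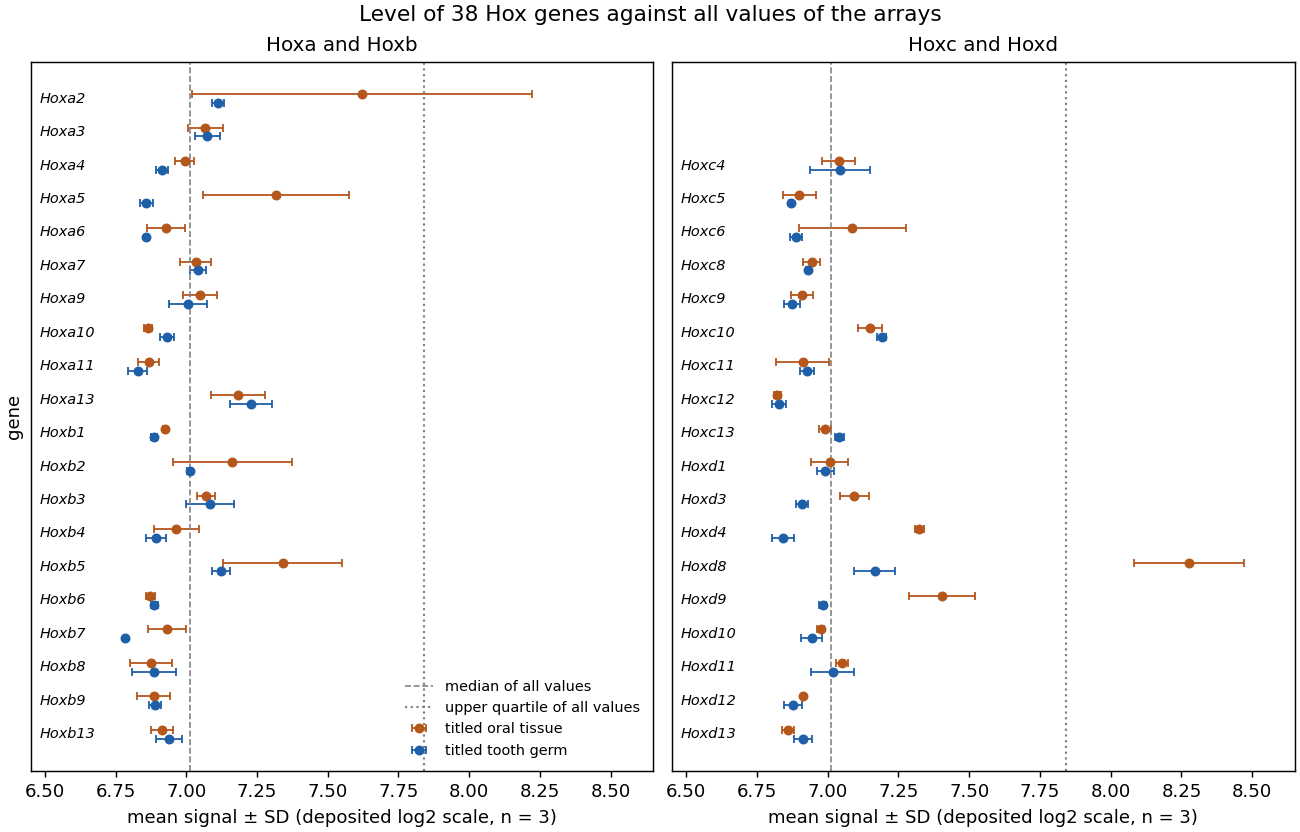
Mean signal of each Hox gene in titled oral tissue (orange) and titled tooth germ (blue) on the deposited log2 scale, with SD over 3 arrays. The dashed line is the median of all values (7.01) and the dotted line the upper quartile (7.84). Most points lie near the dashed line, and Hoxd8 in oral tissue, at 8.28, is the single group mean to the right of the dotted line.

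The comparison of the titled groups asked whether any Hox gene differs between the tooth germ and the tissue around it. In titled tooth germ 6 of 38 members were lower, 0 were higher and 32 were not called (limma, Benjamini-Hochberg adjusted p under 0.05 over all genes). The 6 were Hoxd3, Hoxd4, Hoxd8, Hoxd9, Hoxa5 and Hoxb7. Of all 19057 genes 5.81% were called, 3.42% lower and 2.39% higher, against 15.8% of the Hox genes. Without the adjustment, 11 of 38 members had a limma p under 0.05 in either direction, where 17.1% of all genes did. The median difference over the 38 genes was -0.03 and over all genes 0.0026 (log2, titled tooth germ minus oral tissue). All 3 tooth germ values lay below all 3 oral tissue values for 13 members, where 11.2% of all genes did so, and above them for 3 members, where 11.9% did. Without tooth germ library 1 the count of lower members was 3 (Hoxd4, Hoxd8 and Hoxd9), and it was 4 without tooth germ library 2, without tooth germ library 3, and without both libraries of litter 1 or of litter 3. Hoxd4, Hoxd8 and Hoxd9 were among the called in every one of these fits. In bulk tissue, fewer cells that express a gene and less RNA per cell cannot be told apart.

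**Figure D2:**
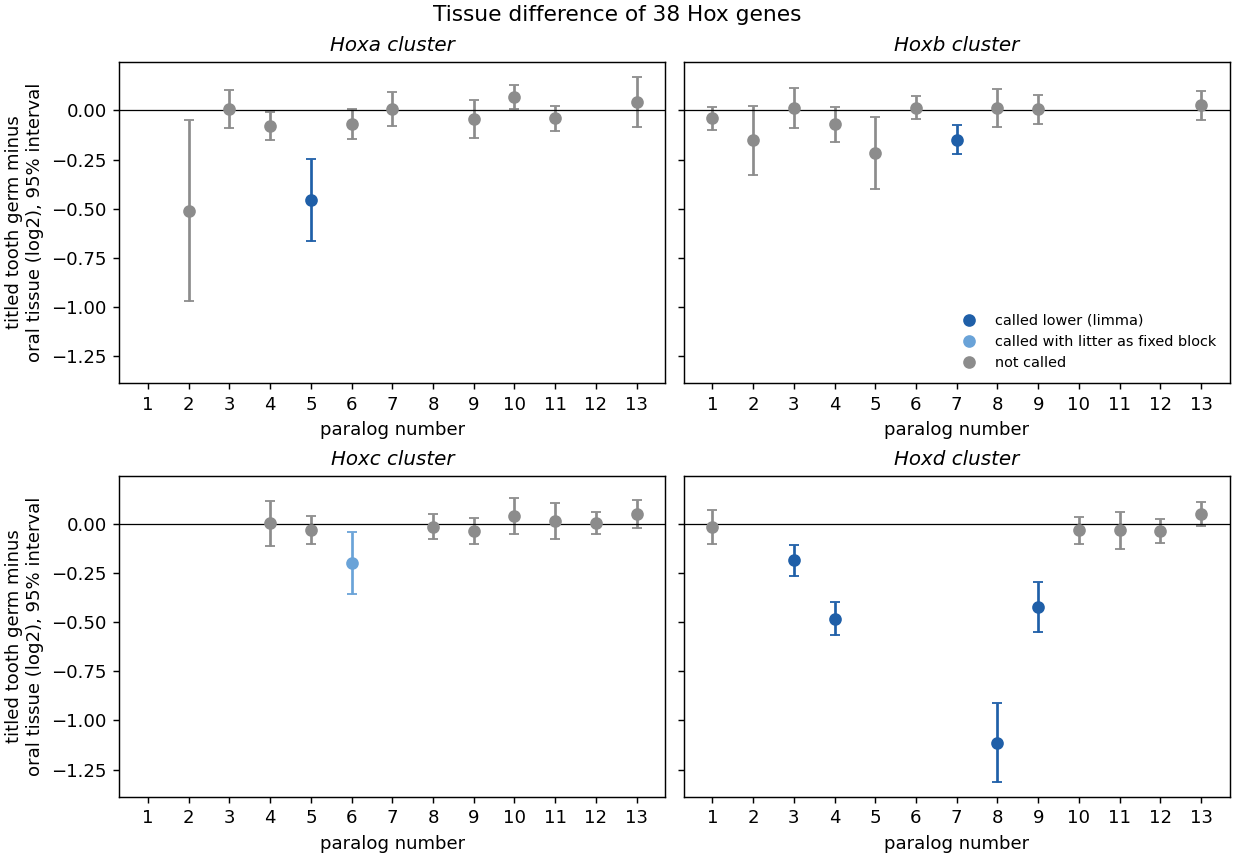
Difference between titled tooth germ and titled oral tissue for each Hox gene (log2, with its 95% interval from limma), by cluster and paralog number. Dark blue points were called lower, the light blue point (Hoxc6) was called with litter as a fixed block and not in the fit plotted, and grey points were not called. Of the 38 points 23 lie below 0, in all 4 clusters, where 9191 of all 19057 genes do. Among the 31 members not called with or without the fixed block, 16 lie below 0. The called Hoxd points lie in the middle of that cluster, with Hoxd8 lowest at -1.11.

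The 4 called Hoxd genes are neighbours. In the order of their starts in the RefSeq gene table (GRCm38.p6), Hoxd9, Hoxd8, Hoxd3 and Hoxd4 follow each other with no other Hox gene between them, and the flanking Hoxd10 and Hoxd1 were not called. Mice have no Hoxd5, Hoxd6 or Hoxd7. The RefSeq models of Hoxd3 and Hoxd4 overlap, so a probe of one gene can lie in a transcript of the other, and the positions of the probes were not used here.

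Of the 38 members, 22 have an entry in the RefSeq promoter table. The 250 bases before the start site of the 4 neighbouring genes that were lower together are shown to let their promoters be compared, all from the plus strand of chromosome 2 (GRCm38.p6), 5′ to 3′. Capitals mark matches, on either strand, of CCAAT, the box bound by NF-Y, of TTTATG, a core bound by CDX and posterior HOX proteins, and of GGGCGG, the GC box of the Sp family.
Hoxd9, chr2:74697513-74697762: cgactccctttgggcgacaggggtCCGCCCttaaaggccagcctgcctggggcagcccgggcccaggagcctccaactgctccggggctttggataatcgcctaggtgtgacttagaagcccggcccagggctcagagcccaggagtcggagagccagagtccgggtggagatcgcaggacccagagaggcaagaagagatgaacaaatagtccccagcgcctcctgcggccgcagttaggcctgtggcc
Hoxd8, chr2:74704365-74704614: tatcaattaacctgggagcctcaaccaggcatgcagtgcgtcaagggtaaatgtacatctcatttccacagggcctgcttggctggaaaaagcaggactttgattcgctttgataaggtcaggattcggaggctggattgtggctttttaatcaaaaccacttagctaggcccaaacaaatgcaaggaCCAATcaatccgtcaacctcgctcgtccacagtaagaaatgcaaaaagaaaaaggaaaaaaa
Hoxd3, chr2:74711743-74711992: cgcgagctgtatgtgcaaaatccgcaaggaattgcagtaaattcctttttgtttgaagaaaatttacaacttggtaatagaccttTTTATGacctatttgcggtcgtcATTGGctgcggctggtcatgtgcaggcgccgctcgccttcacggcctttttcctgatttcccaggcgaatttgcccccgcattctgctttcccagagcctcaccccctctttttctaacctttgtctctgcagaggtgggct
Hoxd4, chr2:74721728-74721977: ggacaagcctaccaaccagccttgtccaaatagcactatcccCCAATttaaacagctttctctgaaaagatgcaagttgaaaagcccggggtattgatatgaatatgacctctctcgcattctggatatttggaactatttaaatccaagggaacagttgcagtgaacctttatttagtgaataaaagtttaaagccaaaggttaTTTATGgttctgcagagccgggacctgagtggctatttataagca

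These promoters differ in make-up. G and C made up 65.2% of the Hoxd9 window, 49.2% of that of Hoxd3, 44.4% of that of Hoxd8 and 40.4% of that of Hoxd4, where the median of all 32851 windows of this length was 52.4%. The Hoxd9 and Hoxd3 windows held 13 and 12 CpG pairs and those of Hoxd8 and Hoxd4 held 6 and 3. CCAAT was present in those of Hoxd8, Hoxd3 and Hoxd4, in 33.8% of all windows and in 14 of the 24 windows of Hox members. TTTATG was in those of Hoxd3 and Hoxd4, in 10.8% of all and in 5 of the 24 Hox windows. GGGCGG was in that of Hoxd9, in 32.7% of all and in 10 of the 24 Hox windows. TATAAA was found in that of Hoxd4, at position -10 from the start site on the minus strand. It was in 12.4% of all windows and in 4 of the 24 Hox windows. TGATNNAT, the composite site of PBX and HOX proteins (7.7% of all windows), TGACAG, the site of MEIS and PKNOX proteins (15.9%), and TAATTA, a homeodomain core (4.8%), were not in any of the 4. No motif searched was present in all 4 windows.

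Hoxd8, a central gene of the cluster active in the trunk, had the largest difference of the Hox genes. It read 8.50, 8.14 and 8.20 in oral tissue libraries 1 to 3 and 7.21, 7.21 and 7.08 in tooth germ libraries 1 to 3. The groups did not overlap, oral tissue library 1 was the highest, and the lowest oral tissue value lay well above the highest tooth germ value. The log2 difference was -1.11 (SE 0.092, 95% interval -1.31 to -0.91, limma adjusted p = 3.06e-05). Within litters 1, 2 and 3 the difference was -1.29, -0.93 and -1.12. By unadjusted p Hoxd8 ranked 47 of 19057 genes. The other members of paralog group 8, Hoxb8 and Hoxc8, differed by 0.011 and -0.013, and their 95% intervals lay between -0.087 and 0.11. The contrast between Hoxd8 and these paralogs was not tested.

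Hoxd4, which is active in the neck region and the hindbrain, had nearly equal values within each group. The oral tissue libraries read 7.32, 7.31 and 7.34 and those of tooth germ 6.87, 6.86 and 6.80. All oral tissue values lay above the median of all values and all tooth germ values below it. The log2 difference was -0.48 (SE 0.038, 95% interval -0.57 to -0.40, limma adjusted p = 2.61e-05), which ranked 32 by unadjusted p. The 3 other members of paralog group 4 were not called, with differences between -0.080 and 0.0044.

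Hoxd9, a gene of the lower trunk and the limb, was measured by a pair of probes. Its brighter probe read 7.53, 7.30 and 7.37 in oral tissue, as titled, against 6.97, 6.99 and 6.99 in tooth germ, with no overlap. Its other probe read 7.48, 7.35 and 7.24 against 6.93, 6.93 and 6.93. Both probes gave the same difference, -0.42 (SE 0.057 and 0.055), with adjusted p = 8.42e-04 over genes for the first and 6.40e-04 over all probes of 1 symbol for the second (limma). The 3 other members of paralog group 9 differed by -0.044 to 0.0059 and were not called. Hoxd9 was the only member of paralog groups 9 to 13 that was called, and the 95% intervals of the remaining 15 lay between -0.14 and 0.17.

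Hoxd3, which patterns the upper neck vertebrae, read 7.13, 7.04 and 7.12 in oral tissue, as titled, against 6.89, 6.90 and 6.93 in tooth germ. The groups did not overlap, though all values lay near the median of all values. The log2 difference was -0.19 (SE 0.036, limma adjusted p = 0.00985). The call was lost without tooth germ library 1 (adjusted p = 0.0541) or 2 (adjusted p = 0.0514), and without litter 1 (adjusted p = 0.125) or litter 3 (adjusted p = 0.0788). Hoxd3os1, an antisense transcript that overlaps Hoxd3, had a pair of probes with differences of -0.016 and -0.065, and neither was called.

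The rest of the Hoxd cluster showed no called difference. Hoxd1, at the end of the cluster that is active nearest the head, read 6.97, 7.08 and 6.97 against 6.97, 6.98 and 7.03, and its groups overlapped (difference -0.015, 95% interval -0.10 to 0.072). The genes at the other end, Hoxd10 to Hoxd13, which act in the limb ends and the tail, differed by -0.035 to 0.052, and 0 of 4 had an unadjusted p under 0.05 (limma). Their means ran from 6.89 to 7.03. Evx2, the homeobox gene beside Hoxd13, differed by -0.010, and Mtx2, the gene beyond Hoxd1, by 0.035, and neither was called.

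**Figure D3:**
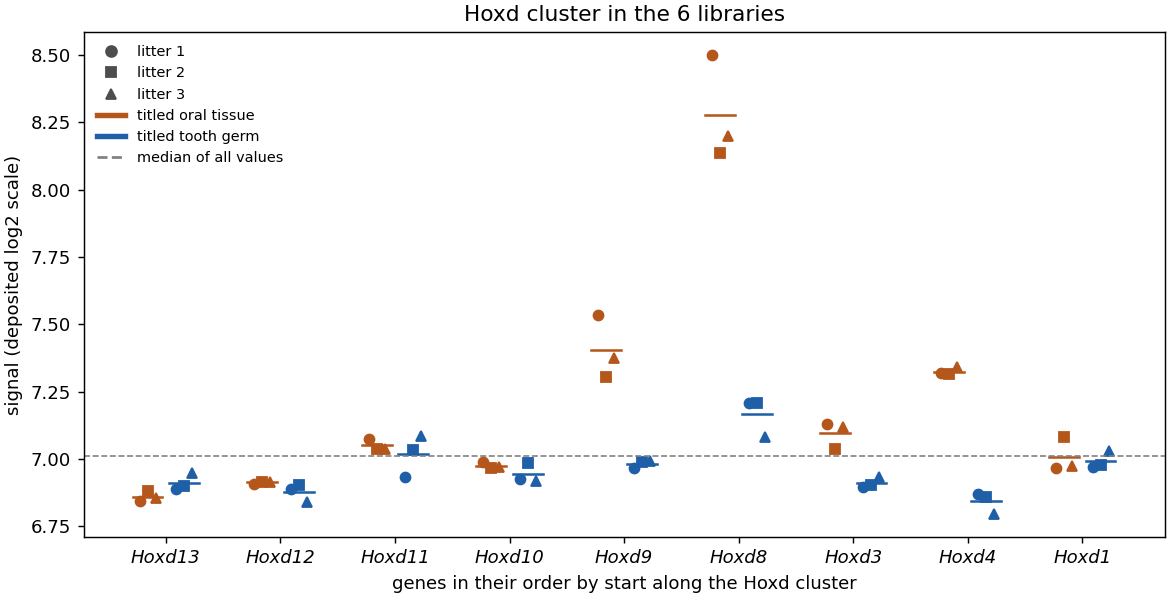
Signal of the 9 Hoxd genes in each library (deposited log2 scale), in the order of their starts along the chromosome, with titled oral tissue in orange and titled tooth germ in blue. Marker shapes are litters, short bars are group means of 3, and the dashed line is the median of all values. Hoxd9, Hoxd8, Hoxd3 and Hoxd4 separate by tissue, with Hoxd8 at 8.14 to 8.50 in oral tissue, and the 5 genes around them do not all separate.

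Outside Hoxd, a pair of genes was called. Hoxa5, a central gene with roles in the neck skeleton and the airways, read 7.61, 7.13 and 7.21 in oral tissue, as titled, against 6.83, 6.88 and 6.86 in tooth germ. The groups did not overlap and oral tissue library 1 stood highest. The log2 difference was -0.46 (SE 0.095, limma adjusted p = 0.0141), with -0.78, -0.25 and -0.35 within litters 1, 2 and 3. The call was lost without tooth germ library 1 (adjusted p = 0.0552), tooth germ library 3 (adjusted p = 0.0630) or litter 3 (adjusted p = 0.0715), and with all libraries it was lost by eBayes without a trend (adjusted p = 0.0909) or with robust shrinkage (adjusted p = 0.168). Without oral tissue library 1 the difference was -0.31 and the gene was called (adjusted p = 0.000715).

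Hoxb7, a central trunk gene, had a dim signal, below the median of all values in every library. It read 7.01, 6.91 and 6.88 against 6.78, 6.79 and 6.78, with no overlap. The log2 difference was -0.15 (SE 0.033, limma adjusted p = 0.0212), and a second probe differed by -0.13 and was not called (adjusted p = 0.131 over all probes of 1 symbol). The call was lost without any 1 of the 3 tooth germ libraries (adjusted p = 0.0765, 0.0709 and 0.0809) and without any 1 litter (adjusted p = 0.124, 0.0854 and 0.0606). With all libraries it was lost with the mean of all probes (adjusted p = 0.0859) and by eBayes without a trend (adjusted p = 0.106).

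Hoxc6, a gene of the thoracic level, was called with litter as a fixed block and not in the fit without a block. It read 7.11, 7.27 and 6.89 in oral tissue, as titled, against 6.90, 6.90 and 6.87 in tooth germ, so oral tissue libraries 1 and 2 were high while library 3 lay inside the tooth germ range. The difference of -0.20 had a limma adjusted p = 0.161, and with litter as a fixed block its limma adjusted p = 0.0415. With litter as a random block it was not called (adjusted p = 0.101). With the fixed block 7 of 38 members were lower and 0 higher, where 8.88% of all genes were called, 5.02% lower and 3.86% higher. Without oral tissue library 3 the difference was -0.30 (limma adjusted p = 0.00432), and without both libraries of litter 3 it was -0.29 (adjusted p = 0.0317). It was -0.11 without oral tissue library 2 (adjusted p = 0.350) and -0.11 without litter 2 (adjusted p = 0.476). No other member changed its call with litter as a fixed block.

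Hoxb5, the paralog of Hoxa5, lay outside the rule for named genes and is given because its values, once seen, had the same high library. It read 7.58, 7.20 and 7.24 in oral tissue, as titled, against 7.16, 7.10 and 7.11 in tooth germ, with no overlap. Its difference of -0.22 was not called (limma adjusted p = 0.196, and 0.0510 with litter as a fixed block). Without oral tissue library 1 it was -0.096 (adjusted p = 0.378), and without litter 1 it was -0.11 (adjusted p = 0.422).

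The anterior genes, of paralog groups 1 to 3, included 1 called member of 7, Hoxd3. Hoxa2, the selector gene of the second arch, stood apart in a single library. It read 7.32, 7.24 and 8.31 in oral tissue libraries 1 to 3 and 7.12, 7.09 and 7.13 in titled tooth germ. The groups did not overlap, but oral tissue library 3 exceeded the next value by 1.00 while the others spanned a narrow range. A dimmer Hoxa2 probe read 6.92, 6.92 and 7.94 against 6.83, 6.84 and 6.88, with the same library high. The difference of -0.51 (SE 0.21, 95% interval -0.97 to -0.048) was not called (limma adjusted p = 0.232), and without oral tissue library 3 it was -0.16 (adjusted p = 0.113).

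Hoxb2, the paralog of Hoxa2, which acts in the hindbrain and its crest, had the same library highest. It read 7.056, 7.027 and 7.406 in oral tissue, as titled, against 7.003, 7.012 and 7.021 in tooth germ, with no overlap. Library 3 exceeded the next value by 0.35, and the difference of -0.15 was not called (limma adjusted p = 0.380); without oral tissue library 3 it was -0.030. The remaining anterior genes varied little. Hoxb1, which sets up a single hindbrain segment, read 6.92, 6.93 and 6.92 against 6.88, 6.88 and 6.90 (difference -0.039, adjusted p = 0.520). Hoxa3, a gene of the third arch and its glands, read 7.001, 7.074 and 7.128 against 7.036, 7.063 and 7.124, with overlap (0.0065, adjusted p = 0.965). Hoxb3 read 7.07, 7.10 and 7.04 against 7.07, 7.17 and 7.01, with overlap (0.015, adjusted p = 0.915).

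**Figure D4:**
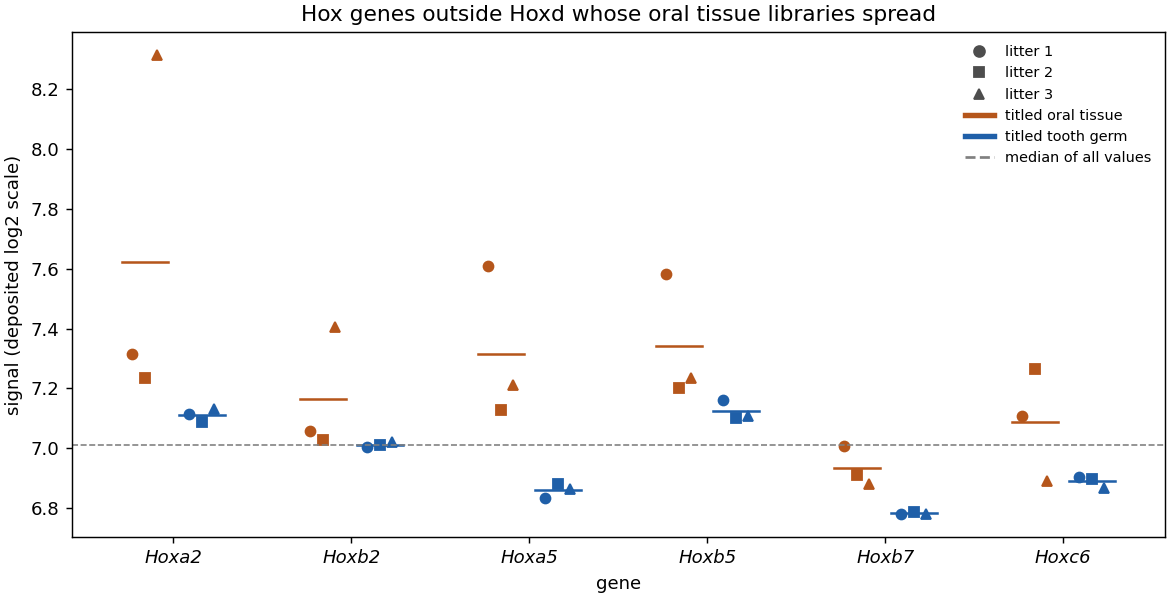
Signal of 6 Hox genes outside the Hoxd cluster in each library (deposited log2 scale), in the colours and shapes of the plot of the Hoxd cluster. In oral tissue, litter 3 (triangles) is highest for Hoxa2 (8.31) and Hoxb2 (7.41), litter 1 (circles) for Hoxa5, Hoxb5 and Hoxb7, and litter 2 (square) for Hoxc6 (7.27). The tooth germ values of each gene stay close together.

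The oral tissue libraries thus had different Hox genes high. The SD over oral tissue libraries exceeded that over tooth germ libraries for 25 of 38 members (65.8%), against 51.5% of all genes. Its median over the members was 0.056 in titled oral tissue and 0.026 in titled tooth germ, where all genes had 0.054 and 0.051. Averaged over all 38 members, the signal was 7.07, 7.05 and 7.07 in oral tissue libraries 1 to 3 and 6.96 in each tooth germ library. Without Hoxd3, Hoxd4, Hoxd8 and Hoxd9 these means were 7.01, 7.01 and 7.02 against 6.96, 6.96 and 6.96. The 34 genes left include the called Hoxa5 and Hoxb7. Their differences ran from -0.51 (Hoxa2) to 0.067, with a median of -0.022.

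The 25 members outside the rule for named genes, which make up most of the posterior genes and much of Hoxa, Hoxb and Hoxc, had differences between -0.22 (Hoxb5) and 0.067 (Hoxa10). By cluster, the counts of called members were 1 of 10 in Hoxa, 1 of 10 in Hoxb, 0 of 9 in Hoxc and 4 of 9 in Hoxd. By paralog number they were 1 of 7 in groups 1 to 3, 4 of 15 in groups 4 to 8 and 1 of 16 in groups 9 to 13. Of all genes 5.81% were called. Outside Hoxd and groups 4 to 8 each of these counts was 0 or 1, and contrasts between clusters or classes were not tested. The medians of the difference in these 3 classes were -0.039, -0.071 and 0.0057. Of the 31 members not called with or without the fixed block, 28 had a 95% interval within 0.2 of 0 on the log2 scale, and the exceptions were Hoxa2, Hoxb2 and Hoxb5.

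Some markers of other tissues were also called between the groups, in either direction. The shares over all 19057 genes were 3.42% lower and 2.39% higher (limma), and 5.02% and 3.86% with litter as a fixed block. A count of 1 in lists this small cannot be told from these shares. The mean log2 signal of 12 skeletal muscle markers was 10.18 to 10.81 in titled oral tissue and 8.85 to 9.06 in titled tooth germ. For 9 neuron markers, 3 of them lower and 5 with litter as a fixed block, it was 7.73 to 8.32 against 7.29 to 7.40, with oral tissue library 1 highest. For 5 glia markers, of which Sox10 alone was lower, it was 7.27 to 7.48 against 7.10 to 7.15. For 10 macrophage and leukocyte markers, 7 lower, it was 8.17 to 8.38 against 7.86 to 7.99, and for 9 endothelium markers, 1 lower and 2 with the fixed block, 8.94 to 9.12 against 8.82 to 8.87. The 8 erythroid markers overlapped between the groups (10.737 to 11.004 against 10.68 to 11.11) with 0 called and 0 at an unadjusted p under 0.05 (limma). Surface epithelium went the other way, with 7 of 12 markers higher and 1 lower and means of 9.84 to 9.95 against 10.33 to 10.44, as did the dental list (8.67 to 8.96 against 9.47 to 9.66). Of 9 markers of the mandibular arch, 1 was higher and 0 lower (8.90 to 9.05 against 9.10 to 9.17), and 3 were higher and 1 lower with the fixed block. The deposited scale has no value of 0, and 1 muscle, 4 neuron, 4 glia, 1 macrophage and 1 endothelium markers had means below the median of all values. The part of these cell types in the Hox differences was not tested.

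HOX proteins bind DNA together with homeodomain cofactors of the TALE class. Of 8 such genes measured, 2 were lower, 0 higher and 6 not called, where 3.42% of all genes were lower. Pknox2 read 8.69, 8.55 and 8.41 in oral tissue, as titled, against 7.89, 7.86 and 7.74 in tooth germ, with no overlap (difference -0.72, SE 0.084, limma adjusted p = 2.96e-04). With the mean of all its probes the Pknox2 difference was -0.13 (adjusted p = 0.0320). Meis1 read 10.24, 10.20 and 10.60 against 9.95, 9.91 and 9.94, also with no overlap (difference -0.41, SE 0.10, adjusted p = 0.0393). The Meis1 call was lost with the mean of all its probes (difference -0.19, adjusted p = 0.195), without any 1 library except oral tissue library 2 (adjusted p up to 0.129), and without any 1 litter, with adjusted p up to 0.155.

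Of 16 genes that act upstream of Hox genes, 2 were higher, 0 lower and 14 not called, where 2.39% of all genes were higher. With litter as a fixed block 4 were higher, where 3.86% of all genes were. The block added Aldh1a2 (difference 0.36, limma adjusted p = 0.0265) and Cyp26a1 (0.27, adjusted p = 0.0489). Egr2, a zinc-finger factor that drives Hoxa2 and Hoxb2 in the hindbrain, read 7.61, 7.87 and 7.96 in oral tissue, as titled, against 9.76, 9.92 and 9.05 in tooth germ (difference 1.77, SE 0.18, limma adjusted p = 1.20e-04). Cyp26b1, an enzyme that breaks down retinoic acid, which switches on anterior Hox genes, read 7.12, 7.28 and 7.29 against 7.56, 7.73 and 7.82 (difference 0.47, SE 0.076, adjusted p = 0.00252). Both separated the groups.

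The chromatin regulators that keep Hox genes silent or active are set against the shares over all genes. Of all 19057 genes 5.81% were called by limma, and 8.88% with litter as a fixed block. An unadjusted p under 0.05 was found for 17.1% (limma). The counts below are of lists too small to be told from these shares. Of 17 Polycomb genes, which repress Hox clusters, 0 were called by limma, 2 had an unadjusted p under 0.05 and 2 were higher with litter as a fixed block, namely Rbbp7 (difference 0.29, adjusted p = 0.0503, and 0.0291 with the block) and Ezh2 (0.31, adjusted p = 0.0924, and 0.0160 with the block), both chosen by those values. Of 11 Trithorax and demethylase genes, which oppose them, 0 were called by limma with or without the fixed block and 2 had an unadjusted p under 0.05. The 6 relatives outside the clusters, the ParaHox genes with Evx1, Evx2 and Mnx1, had 0 calls and 0 unadjusted p-values under 0.05 (limma), with differences between -0.031 and 0.033. Of 19 genes beside or near the clusters 1 was lower, Skap2, an adaptor protein gene near Hoxa (difference -0.39, SE 0.086, adjusted p = 0.0184). That call was lost without any 1 library except oral tissue library 1 and tooth germ library 2 and without litter 2 or litter 3, with adjusted p up to 0.166.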

How the data were processed

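RNA of 6 pools was measured on 1-colour Illumina bead arrays, 3 per tissue. The authors processed the arrays with lumi 2.8.0, per the submitters' processing notes. The deposited values are log2-scale signals per probe, from 6.61 to 14.88. The sources used here do not say whether the scale is plain log2 or variance-stabilised. The sorted columns differed by at most 0.000827, so the deposited table was already quantile normalized and was used as it stands. Of 45281 probes 34885 had 1 symbol in the platform annotation, and the probe with the highest mean stood for each of 19057 genes.

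The test was limma 3.58.1 under R 4.3.3 on the groups as titled (lmFit, eBayes with a trend), adjusted over all genes and tested on simulated data. Levels are means ± SD, and SE is the moderated standard error. Replicates of the same number share a litter per the labels. Deviations from group means correlated at 0.413, 0.233 and 0.266 within litters over 9528 genes and at -0.267 to -0.0724 across them, so the numbers pair the libraries. Named genes were members called with or without litter as a fixed block, those above the upper quartile, the anterior members, and up to 3 called genes of each companion list. Members and lists were chosen with earlier results of these data known, though the rule for members used gene symbols and no measured difference. Alternatives are given in the closing section.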

Additional observations from a re-analysis of the deposited data

How the results depend on the processing

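Hoxd4, Hoxd8 and Hoxd9 were called lower under all 19 alternatives that kept the titles. These were litter as a block, fixed or random, repeated quantile normalization, median centring, the mean of all probes and removal of dim genes. The others were eBayes without a trend or with robust shrinkage, array weights, an adjusted p under 0.01, and leaving out each library or litter in turn. Median centring gave the same differences, because the arrays were already quantile normalized, so it could not change a call. Repeated quantile normalization could move values only a little for the same reason. The stricter threshold reused the p-values of the main fit, which fixed its outcome for Hoxd4, Hoxd8 and Hoxd9. These settings are therefore no separate support. Dim genes were judged by the mean over all 6 arrays. Hoxd4, Hoxd9 and Hoxa5 passed only through titled oral tissue, with tooth germ means of 6.84, 6.98 and 6.86 against a median of 7.01. Their calls under this filter are therefore no separate support. With litter as a fixed replicate block 7 Hox genes were lower and 1693 of all genes were called, against 1107 without it, and Hoxc6 was the 1 Hox gene whose call changed. With litter as a random replicate block 6 were lower, 1430 of all genes were called and Hoxc6 was not called. The count was 5 with robust shrinkage, without Hoxa5, and 5 with the mean of all probes, without Hoxb7. The count of lower Hox genes was 4 with dim genes removed, where members below the median cannot be called, 4 without a trend, and 4 at an adjusted p under 0.01, where 601 of all genes were called. Groups named by source name turn every sign, so that 6 Hox genes were higher and 0 lower. Leaving out 1 library or litter gave 3 to 7 lower Hox genes, 0 to 1 above the upper quartile and 549 to 1025 calls over all genes. Hoxa3, which was not called, changed sign with the mean of all probes (-0.0070) and with array weights (-0.018). Leaving out 1 library or litter moved Hoxa3 between -0.027 and 0.037, Hoxb3 between -0.030 and 0.053 and Hoxd1 between -0.050 and 0.031. The other causes were not tested. Most members had signals near or below the median of all values, so signal over background limits what can be seen.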

Other observations

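In oral tissue library 3 the Hoxa2 value exceeded the highest of the other 5 libraries by 1.00 on the log2 scale, which ranked 6 among the gaps of all 19057 genes in that library. The gap ranked 52 for Hoxb2. The genes named here, from those with the largest gaps there, were chosen after their values were seen. Cxcl13, a chemokine gene, read 9.60 in this library and 6.89 to 7.13 in the others, and Gata6, a zinc-finger transcription factor, read 9.83 against 7.58 to 8.36. The gaps of Ccl21c and LOC100041504 ranked 3 and 4, with values of 9.71 against 7.39 to 8.48 and 9.35 against 7.37 to 8.23. The chemokine gene Ccl21a, whose gap ranked 5, read 9.08 against 7.20 to 8.03.

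In oral tissue library 1, which was highest for Hoxa5 and Hoxb5, the gaps of these genes ranked 61 and 89. The genes with the 5 largest gaps in that library were also chosen after their values were seen. Cartpt, a neuropeptide gene, read 8.27 against 6.82 to 6.87, and Slc6a2, the noradrenaline transporter, 8.40 against 6.96 to 7.11. Isl1, a motor and sensory neuron factor, read 9.63 against 7.23 to 8.54, and Angptl7 read 8.28 against 6.97 to 7.21. Phox2a, a transcription factor of autonomic neurons, read 8.60 against 7.13 to 7.68. Gaps of at least 0.5 were counted for 33 genes in oral tissue library 1, 5 in library 2 and 20 in library 3.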
